A study of Homo sapiens with 9 samples.

Results

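The intrinsic, or mitochondrial, branch of apoptosis was examined through 10 genes of the 78986 in the expression table, chosen by gene symbol: the BH3-only genes BBC3 (PUMA), PMAIP1 (NOXA), BCL2L11 (BIM) and BID, the effectors BAX and BAK1, the antiapoptotic genes BCL2L1 (BCL-XL) and MCL1, the apoptosome scaffold APAF1, and the nuclease gene AEN. RNA-seq had been done on HEK293T cells, a human embryonic kidney line that carries the SV40 large T antigen. The cells were transduced with lentivirus, selected with puromycin and stably overexpressed wild-type (WT), G245S or R273H p53, with 3 biological replicates of each and WT p53 as the control. All 3 lines kept the p53 gene of the host cell, and a line without exogenous p53 was not analysed here. No drug or radiation to induce apoptosis is named in the labels, so the levels below are those of growing cultures.

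In the intrinsic pathway, BH3-only proteins relay stress signals to the BCL2 family at the mitochondrial outer membrane. They free or activate BAX and BAK, which form pores and release cytochrome c, while BCL-XL and MCL-1 hold them in check. Cytochrome c then joins APAF-1 in the apoptosome, which activates caspase-9. PUMA, NOXA, BAX and AEN are among the textbook transcriptional targets of p53, whereas MCL1 and BCL2L1 are regulated largely by other routes. BCL2L11, BID, BAK1 and APAF1 were not sorted here into targets and other genes, so neither group is complete. G245S and R273H are mutations of the p53 DNA-binding domain, and both impair recognition of target sites.

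Library totals were 7325514 to 9667306 counts in 8 libraries and 1486315 in WT replicate 3. That library fell under 0.5 times the median of the others (4096044 counts) and was left out of the fits, so WT entered with 2 libraries, but its values are printed with the rest. A total of 3 counts equals 0.315 to 0.407 CPM (counts scaled to the TMM-adjusted library size) in the fitted libraries and 1.94 CPM in WT replicate 3. All 7 markers of HEK293T cells exceeded 1 CPM in every library. WT replicate 3 also stood apart in composition, since 4 of these 7 were higher there than in the other 8 libraries, among them KRT8 at 50.5 CPM beside 9.71 to 12.1 and KRT18 at 148.2 CPM beside 59.3 to 69.2. The results below that use all 3 WT libraries include this library, and those from the fits do not unless stated. Of 7 markers of other cells, 5 stayed under 1 CPM in every library, among them CD3E at 0, and COL1A1 was at 13.0 to 36.6 CPM. ALB was at 2.59 CPM in WT replicate 3, on 4 counts, and at 0 to 0.239 CPM in the other 8 libraries. By line COL1A1 was at 18.4 to 28.5 CPM in WT, 13.0 to 21.9 in G245S and 21.0 to 36.6 in R273H. It made up most of the summed level of the 7 markers. This sum was 18.7 to 32.4 CPM in WT, 13.3 to 22.3 in G245S and 21.9 to 37.8 in R273H. The part of this sum in the results was not tested. In bulk RNA, fewer expressing cells and less RNA per cell cannot be told apart.

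As p53 binds DNA through a pair of 10-base repeats, the closest match to the p53 consensus element was searched. It is shown for the 4 members whose levels differed most from WT and for the antiapoptotic genes. Each is the best match of 20 bases without a spacer, on either strand, within 2000 bases of the MANE Select start in GRCh38, with the C and G of both repeat cores kept. Capitals mark the 4 central bases of each repeat, distances run from the start to the middle of the match, and the sequence reads 5′ to 3′ on the strand of the gene.
BBC3, chr19:47231320-47231339, minus strand, 131 bases upstream of the start, 3 mismatches: ctgCAAGtcctgaCTTGtcc
PMAIP1, chr18:59899549-59899568, plus strand, 438 bases upstream, 2 mismatches: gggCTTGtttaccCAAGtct
BAX, chr19:48955213-48955232, plus strand, 347 bases downstream in an intron, 2 mismatches: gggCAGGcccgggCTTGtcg
AEN, chr15:88621306-88621325, plus strand, 25 bases upstream, 2 mismatches: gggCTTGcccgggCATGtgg
BCL2L1, chr20:31724496-31724515, minus strand, 1638 bases upstream, 4 mismatches: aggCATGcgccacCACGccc
MCL1, chr1:150579054-150579073, minus strand, 546 bases downstream in a coding exon, 6 mismatches: acaCCAGtacggaCGGGtca

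Matches with at most 2 mismatches lay near 3 of the 10 members (PMAIP1, BAX and AEN) and near 2.92% of 19061 protein-coding genes. Allowing 3 mismatches added BBC3, BAK1 and APAF1, for 6 members beside 16.1% of genes. The sequences shown were picked by level. BAK1 and APAF1 matched as closely as BBC3 but did not pass the test in either mutant. BCL2L1 entered at 4 mismatches, a limit that 47.5% of genes met, and BCL2L11 and BID at 5, a limit that 79% met. MCL1 had the most distant match, at a setting that 95.1% of genes met. A match describes the letters in the window, and whether p53 binds there or acts on the gene was not tested.

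AEN and BBC3 were lower in both mutant lines than in WT, by 34.8% to 43.0%. BAX and PMAIP1 had log2 fold changes of -0.33 to -0.50 that did not pass the test. The other 6 members, among them both antiapoptotic genes and BAK1, did not pass either. In total 2 of 10 members were called lower and 0 higher in each mutant by the edgeR quasi-likelihood test at an adjusted p under 0.05. In all genes 0.126% were called in G245S against WT (20 of 15893) and 0.137% in R273H against WT (22 of 16022). The median log2 fold change of the 10 members was -0.15 in G245S and -0.23 in R273H, beside 0.0034 and 0.0023 over all genes tested. Both comparisons use the same WT libraries, so they are not independent of each other.

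**Figure D1:**
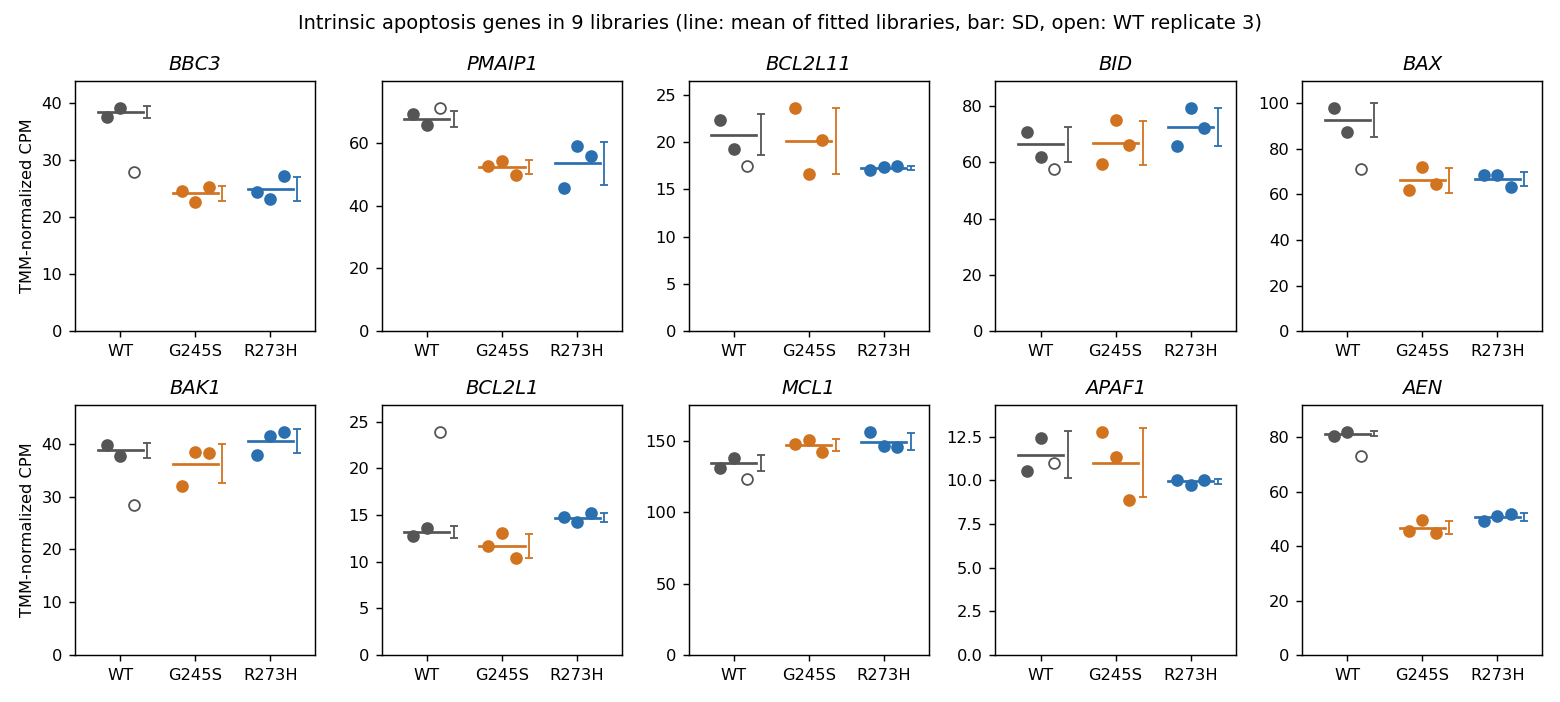
Level of each of the 10 genes (y axis, TMM-normalized CPM from 0) in the 3 lines (x axis). Each point is a library, open points mark WT replicate 3, and lines and bars give the mean and SD of the fitted libraries. AEN in the mutants (45.0 to 51.7) lies below every WT library (73.1 to 82.2), while BID and BAK1 overlap across the lines.

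AEN encodes a nuclease that is induced by p53 and degrades DNA and RNA during apoptosis (chr15:88621337-88632281, plus strand). Its level was 80.7, 82.2 and 73.1 CPM in WT replicates 1 to 3. In G245S it was 45.8, 49.7 and 45.0 CPM, and in R273H 49.2, 51.1 and 51.7. All 6 mutant libraries lay below all 3 WT libraries. The means were 81.4 ± 1.06 (SD, n = 2), 46.8 ± 2.52 (n = 3) and 50.7 ± 1.32 CPM (n = 3). AEN was 43.0% lower in G245S, with a log2 fold change of -0.81 (SE 0.0879, 95% interval -1.0 to -0.62, edgeR adjusted p = 0.000848), the rank 5 gene by p. In R273H it was 37.5% lower, at -0.68 (SE 0.0842, interval -0.86 to -0.50, edgeR adjusted p = 0.00147), rank 10. With all 3 WT libraries the values were -0.81 (edgeR adjusted p = 0.00237) and -0.67 (0.0054). AEN was then the 1 member called in each mutant, where 0.0641% of all genes were called in G245S and 0.102% in R273H. The call was lost when WT replicate 2 was replaced by WT replicate 3 (edgeR adjusted p = 0.0589 and 0.0967).

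BBC3 encodes PUMA, a BH3-only protein that binds the antiapoptotic family members (chr19:47220822-47232766, minus strand). It measured 37.6, 39.1 and 27.8 CPM in WT. In G245S it measured 24.6, 22.6 and 25.2 CPM, and in R273H 24.4, 23.1 and 27.1. Every mutant library was below every WT library, but WT replicate 3 lay nearer to the mutants than to the other WT libraries. It rested on 43 counts, which allow 20.1 to 37.5 CPM (exact Poisson 95% interval), a range that takes in all 6 mutant libraries. The means were 38.3 ± 1.08 (SD, n = 2), 24.1 ± 1.34 (n = 3) and 24.9 ± 2.07 CPM (n = 3). BBC3 was 37.4% lower in G245S, at a log2 fold change of -0.68 (SE 0.101, interval -0.89 to -0.46, edgeR adjusted p = 0.0152, rank 11). In R273H it was 34.8% lower, at -0.62 (SE 0.103, interval -0.84 to -0.40, edgeR adjusted p = 0.0219, rank 21). With all 3 WT libraries it was -0.63 and -0.57 and was no longer called (edgeR adjusted p = 0.0717 and 0.143). Leaving out another library of the fit also mattered, with an edgeR adjusted p in the G245S comparison of 0.0639 without WT replicate 1, 0.136 without WT replicate 2 and 0.062 without G245S replicate 3. In the R273H comparison it was 0.0856 without WT replicate 1, 0.198 without WT replicate 2, 0.0883 without R273H replicate 1 and 0.0698 without R273H replicate 2. DESeq2 gave BBC3 an adjusted p of 0.109 in R273H.

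PMAIP1 encodes NOXA, a BH3-only protein that binds chiefly MCL-1 (chr18:59899996-59904305, plus strand). Its level was 69.3, 65.8 and 71.2 CPM in WT. In G245S it was 52.8, 54.4 and 49.8 CPM, and in R273H 45.8, 59.0 and 55.8. All 6 mutant libraries were below all 3 WT libraries, and here WT replicate 3 was the highest of the 9. The log2 fold change was -0.38 in G245S (SE 0.0875, interval -0.57 to -0.19, edgeR adjusted p = 0.212). In R273H it was -0.33 (SE 0.105, interval -0.56 to -0.11, edgeR adjusted p = 0.553). Neither passed the test, although both intervals lie below 0.

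BCL2L11 encodes BIM, a BH3-only protein able to bind all antiapoptotic members (chr2:111119378-111168444, plus strand). It was at 22.3, 19.2 and 17.5 CPM in WT, 23.6, 16.7 and 20.2 in G245S and 17.1, 17.4 and 17.4 in R273H. The G245S libraries spanned the WT range, and the R273H libraries sat just under its lower end. Its log2 fold change was -0.05 in G245S (interval -0.36 to 0.26, edgeR adjusted p = 0.977) and -0.26 in R273H (interval -0.51 to -0.01, edgeR adjusted p = 0.794).

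BID, which links death receptors to the mitochondria once caspase-8 has cleaved it (chr22:17734138-17774770, minus strand), was at 70.7, 62.0 and 57.6 CPM in WT. It was at 59.5, 75.0 and 66.1 in G245S and 65.7, 79.4 and 72.3 in R273H. The 3 lines overlapped, and the differences were -0.0057 (interval -0.24 to 0.23) and 0.13 (interval -0.088 to 0.34) on the log2 scale, with edgeR adjusted p = 0.997 and 0.959. Within the BH3-only group, BBC3 was thus called in both mutants and the other 3 members in neither, and the difference between these genes was not tested.

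BAX forms pores in the outer mitochondrial membrane (chr19:48954815-48961798, plus strand). It was at 97.9, 87.2 and 71.2 CPM in WT. In G245S it was at 61.8, 72.1 and 64.3 CPM, and in R273H at 68.5, 68.6 and 63.1. G245S replicate 2 was above WT replicate 3, while the 3 R273H libraries were below all WT libraries. The means were 92.5 ± 7.59 (SD, n = 2), 66.1 ± 5.37 (n = 3) and 66.7 ± 3.15 CPM (n = 3). The log2 fold change was -0.50 in G245S (SE 0.0968, interval -0.71 to -0.29, edgeR adjusted p = 0.0782, rank 30) and -0.47 in R273H (SE 0.0903, interval -0.66 to -0.27, edgeR adjusted p = 0.072, rank 27). It thus ranked high among all genes and missed the threshold in both. With all 3 WT libraries the values were -0.45 and -0.42 (edgeR adjusted p = 0.298 and 0.403). Without G245S replicate 2, the highest of the G245S libraries, BAX was called in G245S (edgeR adjusted p = 0.0198).

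BAK1, the other pore-forming effector (chr6:33572547-33580293, minus strand), was at 39.8, 37.7 and 28.5 CPM in WT, 32.0, 38.5 and 38.2 in G245S and 37.9, 41.4 and 42.3 in R273H. The groups overlapped, with WT replicate 3 the lowest of the 9 libraries. Its log2 fold change was -0.11 in G245S (interval -0.34 to 0.12, edgeR adjusted p = 0.902) and 0.069 in R273H (interval -0.13 to 0.27, edgeR adjusted p = 0.994). Whether BAX and BAK1 differ in their response was not tested.

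**Figure D2:**
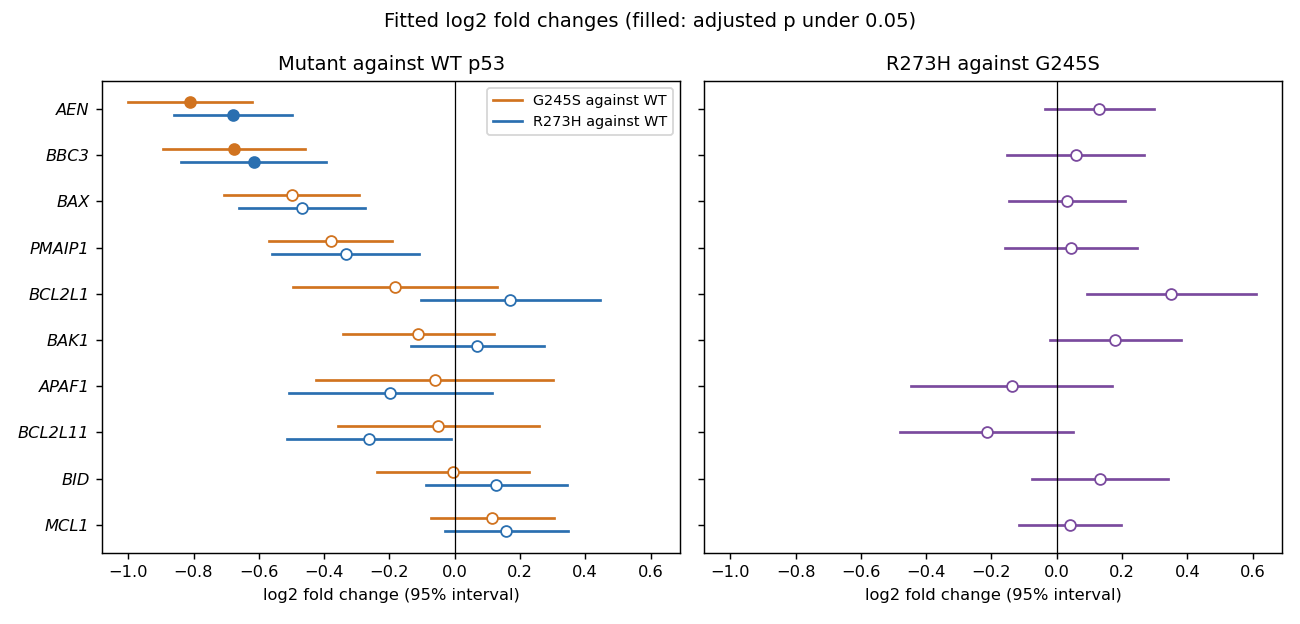
Log2 fold changes (x axis) of the 10 genes (y axis) with 95% intervals, each mutant against WT on the left and R273H against G245S on the right, with filled points for an adjusted p under 0.05. AEN and BBC3 hold the only filled points, BAX and PMAIP1 have intervals below 0 in both mutants, and on the right the BCL2L1 interval (0.093 to 0.61) lies above 0.

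MCL1 encodes a short-lived antiapoptotic protein that restrains BAK and is bound by NOXA (chr1:150560895-150579738, minus strand). It was at 130.8, 138.4 and 123.6 CPM in WT. It was at 148.0, 150.7 and 142.5 CPM in G245S and 156.8, 146.5 and 145.9 in R273H. All 6 mutant libraries were above all 3 WT libraries, by a margin that the test did not call. The log2 fold change was 0.12 in G245S (interval -0.072 to 0.30, edgeR adjusted p = 0.855) and 0.16 in R273H (interval -0.029 to 0.35, edgeR adjusted p = 0.914). MCL1 overlaps ADAMTSL4-AS1 and 2 RN7SL copies on its own strand, and some of its counts were fractions from reads that match several places. Fractions also occurred for BCL2L11, BAX, BAK1 and APAF1, so for 5 members in all.

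BCL2L1, whose main product BCL-XL binds BAX, BAK and BH3-only proteins (chr20:31664452-31723989, minus strand), was at 12.7, 13.6 and 23.9 CPM in WT. It was at 11.6, 13.0 and 10.4 CPM in G245S and 14.8, 14.2 and 15.2 in R273H. WT replicate 3 stood above the other 8 libraries, on 37 counts that allow 16.9 to 33.0 CPM (exact Poisson 95% interval). Against WT the log2 fold change was -0.18 in G245S (interval -0.49 to 0.13, edgeR adjusted p = 0.866) and 0.17 in R273H (interval -0.10 to 0.44, edgeR adjusted p = 0.953). With all 3 WT libraries these were -0.37 and -0.0031, so the direction in R273H rests on the WT libraries used. The counts are per gene and do not separate BCL-XL from the shorter BCL-XS.

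APAF1 (chr12:98645149-98735433, plus strand) was the member with the lowest CPM. It was at 10.5, 12.4 and 11.0 CPM in WT, 12.8, 11.3 and 8.91 in G245S and 10.0, 9.77 and 10.0 in R273H. The R273H libraries were close together at the lower end and the G245S libraries spanned the WT range. Its log2 fold change was -0.061 in G245S (interval -0.43 to 0.30, edgeR adjusted p = 0.974) and -0.20 in R273H (interval -0.51 to 0.11, edgeR adjusted p = 0.953).

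Over all 9 libraries, which needs no choice among the WT replicates, G245S lay below WT without overlap for 3 members (AEN, BBC3 and PMAIP1) and above it for 1 (MCL1). Of the 16260 genes with a mean of at least 1 CPM, 4.18% were below and 8.6% above in the same way. R273H lay below WT for 6 members (AEN, BBC3, PMAIP1, BAX, BCL2L11 and APAF1) and above it for 1 (MCL1), beside 5.09% and 6.58% of genes. The BCL2L11 and APAF1 margins were small, 17.4 against 17.5 CPM and 10.0 against 10.5.

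The levels of AEN, BBC3, BAX and PMAIP1 were also set against MCL1 in the same library, a ratio that does not depend on library scaling. MCL1 was itself slightly higher in the mutants, and the ratios compare libraries only, since transcript length differs between genes. The AEN count was 59.2% to 61.6% of the MCL1 count in WT, 30.9% to 33.0% in G245S and 31.4% to 35.5% in R273H. The BBC3 count was 22.5% to 28.7% of it in WT, 15.0% to 17.7% in G245S and 15.6% to 18.6% in R273H. On this ratio WT replicate 3 sat with the other WT libraries for AEN and below them for BBC3. BAX was at 57.6% to 74.8% in WT, 41.8% to 47.9% in G245S and 43.2% to 46.9% in R273H. PMAIP1 was at 47.5% to 57.6% in WT, 35.0% to 36.1% in G245S and 29.2% to 40.3% in R273H. On this ratio 5 of the 9 members other than MCL1 lay below WT without overlap in G245S (AEN, BBC3, PMAIP1, BAX and BCL2L1). So did 14.5% of the 16260 genes with a mean of at least 1 CPM. In R273H 6 members did (AEN, BBC3, PMAIP1, BAX, BCL2L11 and APAF1), as did 19.7% of the same genes. BAX in G245S overlapped WT in CPM and separated only on this ratio, whose denominator was higher in all 6 mutant libraries.

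**Figure D3:**
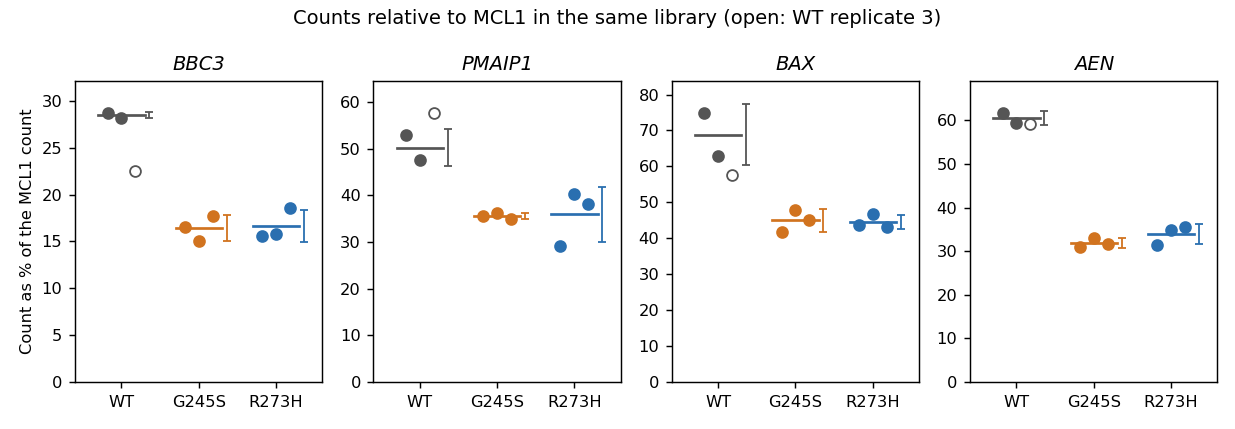
Count of BBC3, PMAIP1, BAX and AEN as a percent of the MCL1 count in the same library (y axis, from 0) in the 3 lines (x axis). Points are libraries, open points mark WT replicate 3, and lines and bars give the mean and SD of the fitted libraries. AEN is at 59.2% or more in WT and at 35.5% or less in the mutants.

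R273H removes a contact with DNA and G245S disturbs the fold of the binding surface, so the mutants were also compared with each other. The edgeR test called 0 of the 10 members and 0% of 15614 genes, of which 741 had an unadjusted p under 0.05, and DESeq2 called 1 gene and no member. Over all genes the edgeR count went to 125 with no filter on low counts and to 59 with the replicate number as a block, with 0 members called in both. The 4 genes that were lowest against WT differed little between the mutants. AEN was 0.13 higher in R273H on the log2 scale (interval -0.036 to 0.30), BBC3 0.058 (interval -0.15 to 0.27), PMAIP1 0.045 (interval -0.16 to 0.25) and BAX 0.031 (interval -0.15 to 0.21). These intervals still admit differences of up to 0.30, so they do not show that the mutants act alike. For AEN, BBC3, PMAIP1 and BAX the mean levels ordered as WT, then R273H, then G245S, and the libraries of the 2 mutants overlapped. The order of the mutants turned when 1 library was left out, for BBC3 without R273H replicate 3 (-0.0028), for PMAIP1 without R273H replicate 2 (-0.036) and for BAX without G245S replicate 1 (-0.023). For AEN it held, at 0.11 to 0.17.

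BCL2L1 was the member that differed most between the mutants. Its 3 R273H libraries (14.2 to 15.2 CPM) lay above the 3 G245S libraries (10.4 to 13.0 CPM), a log2 fold change of 0.35 (SE 0.122, interval 0.093 to 0.61) with an edgeR adjusted p of 0.948. It was the 1 member higher in R273H without overlap and 0 were lower. Of the 16260 genes with a mean of at least 1 CPM, 3.71% were higher and 5.58% lower. The remaining members differed by -0.21 (BCL2L11) to 0.18 (BAK1).

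The rest of the pathway was counted from 2 lists, 15 further BCL2 family genes and 29 genes downstream of the mitochondria or regulating the pathway. Of the family, 11 were tested, as BCL2A1, BCL2L10, BCL2L14 and BCL2L15 were too low. The edgeR test called 0 of 11 in each mutant against WT, with 1 and 3 at an unadjusted p under 0.05 in G245S and R273H (9.09% and 27.3% of those tested, beside 6.66% and 6.11% of all genes) and medians of -0.0085 and -0.011. Of the downstream genes 27 were tested, without BIRC3 and TP53AIP1, and 0 were called, with 1 (3.7%) at an unadjusted p under 0.05 in each mutant and medians of 0.0018 and -0.0091. DESeq2 called 0 genes of both lists in each mutant. The nearest to a call was HRK, a BH3-only gene known from neurons. It was at 11.9, 10.1 and 14.9 CPM in WT, 13.6, 13.1 and 12.9 in G245S and 16.1, 14.9 and 16.1 in R273H. The R273H libraries were just above the highest WT library, WT replicate 3, and its log2 fold change in R273H was 0.52 (SE 0.135, edgeR adjusted p = 0.359). DFFA, which encodes the inhibitor of the caspase-activated DNase, had the smallest p of the downstream list in both mutants, at -0.24 (SE 0.0868, edgeR adjusted p = 0.65) in G245S and -0.32 (SE 0.0855, edgeR adjusted p = 0.375) in R273H. BNIP3 and BNIP3L, mitophagy receptors of the family, were both at -0.33 in R273H (edgeR adjusted p = 0.499 and 0.583). BAD, a BH3-only gene controlled by growth factor kinases, was at -0.22 in G245S (edgeR adjusted p = 0.725). The others with the smallest p were BCL2L13 (0.16), BNIP3L (-0.22), the caspase gene CASP6 (-0.21) and PPP1R13L (0.37) in G245S, and the caspase inhibitor gene XIAP (-0.17) and the caspase-activated DNase gene DFFB (-0.23) in R273H, with edgeR adjusted p from 0.775 to 0.914.

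The genes whose log2 CPM followed BBC3 most closely over the 8 fitted libraries, among 11039 genes with a mean of at least 5 CPM, were PHLDA3 (Pearson r 0.985), SESN1 (0.968) and BCYRN1 (0.961). For AEN they were FDXR (0.966), SOX9 (0.965) and PHLDA3 (0.963). These are descriptions, since the libraries of a line share whatever sets that line apart.

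Over the 20 sets of 3 mutant libraries (10 members in 2 lines), the median coefficient of variation was 5.63%, beside 5.29% from counting alone, and 7 of the 20 were below their counting value. Some sets spread well beyond it. BCL2L11 varied by 17.3% in G245S beside 7.83% from counting, BID by 11.6% beside 4.23% in G245S and 9.42% beside 4.13% in R273H, PMAIP1 by 12.9% beside 4.82% in R273H, and BAX by 8.12% beside 4.25% in G245S. For BCL2L1 and APAF1, the members with the fewest counts, the intervals against WT reached 0.49 and 0.43 below 0 in G245S, so a difference as large as the one estimated for PMAIP1 lies within them.

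**Figure D4:**
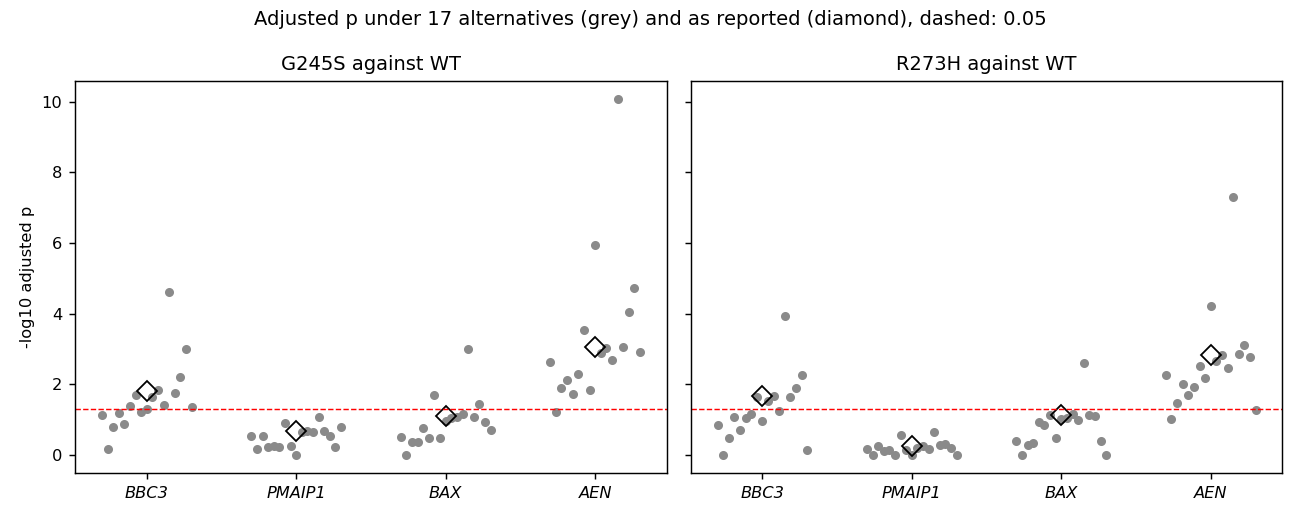
Minus log10 of the adjusted p (y axis) of BBC3, PMAIP1, BAX and AEN (x axis) under 17 alternative settings (grey points) and as reported (diamonds), with a dashed line at 0.05. AEN lies above the line in 16 of 17 settings in G245S and 15 of 17 in R273H, BBC3 in 11 and 7, and BAX in 3 and 1.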

How the data were processed

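RNA-seq of 9 HEK293T libraries was analysed. The authors filtered reads with fastp 0.24.0, aligned them with STAR 2.7.11 to GRCh38, sorted with SAMtools 1.22.1, collapsed duplicates on their molecular identifiers (UMICollapse), and counted exons and 3′ UTRs per gene with featureCounts (Subread 2.1.1), by strand and with fractions for multi-mapping reads. The deposited values used are these expected counts, not normalized. They were rounded to whole numbers here. The authors' 9 CPM columns were not used.

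Genes were filtered with filterByExpr, normalized with TMM (trimmed mean of M values) and tested in edgeR 4.0.16 (R 4.3.3) by quasi-likelihood, p-values being adjusted by Benjamini-Hochberg over all genes tested and called under 0.05. Levels are TMM CPM over all 9 libraries. A rule on depth removed WT replicate 3 from the fits, and the study also leaves out 1 WT replicate for poor quality and low reads. Intervals from counts cover counting error only. DESeq2 1.42.0 was an alternative, limma 3.58.1 is the base of edgeR, plots used matplotlib 3.10.9 in Python 3.11.15, and the fits were tested on simulated data. The study's methods describe the replicates as different biological ones, of 1 stable line per genotype as far as the labels say. The p-values therefore measure the spread within lines.

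All 10 members are named. Of the other pathway genes, none passed the threshold in the fits as reported. The 3 with the smallest p of each list against WT are named, and for BBC3 and AEN the 3 genes most correlated with each. Members and lists were chosen with earlier results of these data known. Matches to the p53 consensus were searched in GRCh38 with GENCODE annotation. The level of the p53 transcript itself is not reported here.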

Additional observations from a re-analysis of the deposited data

How the results depend on the processing

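AEN and BBC3 were called in each mutant, 2 members of 10. With all 3 WT libraries 1 member was called in each mutant, with WT replicates 1 and 3 it was 0 in each, and with WT replicates 2 and 3 it was 1 in each. In R273H 1 was called with DESeq2, 1 with scaling by library totals only and 0 with a replicate block over all 3 WT libraries. Leaving out each fitted library in turn gave 1 to 3 members in G245S and 1 to 2 in R273H. The cause was not tested.

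AEN was called in 16 of 17 settings in G245S and 15 of 17 in R273H. It missed with WT replicates 1 and 3, and in R273H with the block over all 3 WT libraries (edgeR adjusted p = 0.0537). BBC3 was called in 11 and 7 of 17. Beyond the settings given above, it missed in R273H with library totals (0.0566), and with WT replicates 1 and 3 (0.684 and 0.989) or 2 and 3 (0.165 and 0.334). BAX was called in 3 of 17 settings in G245S, among them with no filter (0.00102) and in 1 fit of all groups (0.036), and in 1 in R273H, with no filter (0.00242).

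Directions held in 157 of 170 values in G245S, 166 of 170 in R273H and 137 of 140 between the mutants, and no reversed value was called. In G245S, BID reversed with all 3 WT libraries (0.0071), with WT replicates 2 and 3 (0.082), with no filter (0.0020) and with the block over all 3 WT libraries (0.0086). APAF1 reversed with WT replicates 1 and 3 (0.014) and with the replicate block (0.064), and BCL2L11 with WT replicates 2 and 3 (0.057). Leaving out single libraries gave -0.096 to 0.092 for BID, -0.19 to 0.063 for APAF1 and -0.18 to 0.065 for BCL2L11. In R273H, BCL2L1 reversed with all 3 WT libraries (-0.0031), with WT replicates 1 and 3 (-0.10) or 2 and 3 (-0.17) and with the block over all 3 WT libraries (-0.095). Between the mutants, leaving out single libraries gave -0.023 to 0.097 for BAX, -0.036 to 0.15 for PMAIP1 and -0.0028 to 0.10 for BBC3.

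These counts and the ratios to MCL1 were added after the data were seen. Over all genes, 20, 22 and 0 were called in G245S, in R273H and between the mutants. With no filter these were 144, 93 and 125, with all 3 WT libraries 10 and 16, and with WT replicates 1 and 3 they were 3 and 4. Of the other pathway genes 1 was called, with no filter between the mutants, and it is not named here. Members below WT without overlap went from 3 to 4 in G245S with RLE scaling or library totals, and from 6 to 5 in R273H with upper-quartile scaling or library totals. With library totals, members above WT in R273H went from 1 to 2, and those above G245S from 1 to 4.

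Replicate pairing was unclear. Same-number deviations correlated at -0.23 to 0.38 (over 0.1 in 2 of 9, both between mutants), others at -0.34 to 0.27 (6 of 18). With the replicate block 2 members were called in each mutant, of 76 and 47 genes in all, and 59 genes between the mutants. WT rests on 2 fitted libraries, and each genotype on 1 stable line as far as the labels say. Where 1 WT library was left, it was assumed to vary like the others.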

Other observations

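Single libraries stood apart for 2 family genes that are not members, named after their values were seen. BNIP3 was at 144.0 CPM in G245S replicate 3, beside 69.2 to 89.9 CPM in the other G245S libraries and in WT, and 60.6 to 69.2 CPM in R273H. BOK, a BAX-like family gene, was at 7.12 CPM in WT replicate 3 on 11 counts, beside 1.11 to 2.85 CPM in the other 8 libraries.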
